A study of Rattus norvegicus with 8 samples.

Results

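GABA-A receptor subunits are the building blocks of the chloride channels through which the transmitter GABA inhibits neurons, and 7 of their genes are described here: Gabra2, Gabra3, Gabra4, Gabra5, Gabrb1, Gabrb2 and Gabrd. Members were the probes whose gene name on the array was 1 of these 7, and 6 genes were found in this way, each with 1 probe, among 18365 distinct gene names and 41012 probes on the array. No probe carried the name Gabra2. Its gene ID in the RefSeq table was the number in the name LOC289606, which 1 probe carried, and that probe is described as Gabra2 on the strength of this match alone. Of these 7 probes, 5 were well above background on at least 1 array, and those of Gabra3 and Gabrb2 were on none.

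The RNA came from neurons cut out by laser from the CA3 field of the hippocampus of male Sprague-Dawley rats and was hybridized to 8 single-colour arrays, 2 for each of 4 groups. Naive rats received no treatment, sham rats had the surgery without the blow, and injured rats received a moderate fluid percussion injury of the brain; all brains were taken at 24 hours and the ages were not given. From injured rats, neurons stained by Fluoro-Jade, a dye that marks degenerating neurons, formed the dying group, and unstained neurons next to them formed the surviving group, in pools of about 600 cells from at least 3 rats each. Pools were amplified over 2 rounds, and whether the pools of a group shared rats was not given, so that p-values measure the spread between these arrays only. The number of arrays limits the precision of every value. The arrays of surviving and dying neurons lay on 1 slide, scanned together, and those of naive and sham rats on another. The protocol named in the file headers also differed between the slides. Against sham rats, a difference made by injury and one made by the slide or its protocol cannot be told apart.

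As background, a GABA-A receptor is a ring of subunits in which alpha and beta subunits form the site that binds GABA, and the remaining subunit sets where the receptor sits and how it responds. Receptors with a gamma subunit gather at synapses and carry brief inhibition, while those with the delta subunit, and many with Gabra5, lie outside synapses and carry a steady, tonic inhibition. Pyramidal cells of the hippocampus are known for a high content of Gabra5, and granule cells of the neighbouring dentate gyrus for pairing Gabra4 with Gabrd.

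The promoters of the 3 members that passed a test against sham rats are shown here, as the 250 bases before the start of each gene on its own strand, from RefSeq and build GRCr8. Gabra4 and Gabrb1 are direct neighbours on chromosome 14 and are read in opposite directions, whereas Gabrd lies on chromosome 5 between Prkcz and Cfap74. The windows are chr14:36944497-36944746 on the plus strand for Gabra4, chr14:36902894-36903143 on the minus strand for Gabrb1 and chr5:171252710-171252959 on the minus strand for Gabrd. Capitals mark matches, on either strand, to the letters GGGCGG (a GC box), CGCATGCG (the core bound by NRF1), GCGGGGGCG (bound by EGR factors), TGACG (part of a cyclic AMP response element) or TATAAA.
Gabra4: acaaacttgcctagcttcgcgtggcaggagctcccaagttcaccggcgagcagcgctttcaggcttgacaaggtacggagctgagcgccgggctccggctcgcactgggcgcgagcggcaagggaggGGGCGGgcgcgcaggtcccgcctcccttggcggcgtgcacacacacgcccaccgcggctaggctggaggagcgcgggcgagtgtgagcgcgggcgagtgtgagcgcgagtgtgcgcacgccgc
Gabrb1: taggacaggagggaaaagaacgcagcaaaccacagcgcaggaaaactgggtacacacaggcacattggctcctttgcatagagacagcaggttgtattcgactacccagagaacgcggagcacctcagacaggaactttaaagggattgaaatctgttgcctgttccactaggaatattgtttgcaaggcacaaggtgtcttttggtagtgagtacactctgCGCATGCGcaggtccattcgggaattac
Gabrd: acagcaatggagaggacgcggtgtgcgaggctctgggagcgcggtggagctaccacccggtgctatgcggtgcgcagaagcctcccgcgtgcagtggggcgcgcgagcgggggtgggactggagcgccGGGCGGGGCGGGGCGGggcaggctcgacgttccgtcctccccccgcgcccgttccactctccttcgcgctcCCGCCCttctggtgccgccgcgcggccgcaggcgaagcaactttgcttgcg
The Gabra4 window held 1 GC box and the Gabrd window held 4, of which 3 stood in a row, each sharing 1 base with the next; 30.5% of 33469 promoter windows of this length held at least 1. Gabrb1 had no GC box and 1 CGCATGCG, which 1.47% of the windows held, and the Gabrb2 window held 1 as well. GCGGGGGCG and TGACG, in 2.45% and 18.2% of all windows, were in none of the 3, nor was TATAAA, in 12.9%. Guanine and cytosine made up 71.6% of the Gabra4 window, 74% of that of Gabrd and 49.2% of that of Gabrb1, against a median of 51.2% over all windows. A match of letters is a description of the sequence only.

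Levels are given as the log2 of the processed signal over the median signal of the array, so that a level of 0 is that median, and a difference of 1 between groups is a doubling. The array medians before scaling were 27.2 and 22.7 for naive, 16.5 and 16.4 for sham, 52.2 and 48.2 for surviving neurons, and 19.2 and 52.6 for dying ones, and from 20191 to 29345 probes were well above background. The lowest level of any probe well above background was from -2.30 to -1.35 on the injured arrays and from -0.81 to -0.15 on naive and sham arrays. At the same faint level a probe could thus count as well above background on injured arrays only. The choice of scale moved the differences from the controls, and which scale is nearer the truth was not tested. When arrays were divided by their 75th percentile, the median difference over all probes moved by 0.79 for surviving minus sham, by 0.73 for dying minus sham and by -0.29 for sham minus naive, and by 0.06 for surviving minus dying. The 75th percentile moves nearly all probes of a comparison by the same amount. Differences of the members from sham rats are given under both scales, those of related genes under the median scaling unless stated, and all are to be read beside the median over all probes tested, which was -0.43 for surviving and -0.46 for dying neurons under the median scaling.

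Among the alpha subunits, Gabra4 showed the widest gap between groups. Its probe (A_43_P15434) read -0.40 and 1.95 in naive rats, 0.92 and 0.72 in sham rats, -0.44 and -0.37 in surviving neurons, and -2.69 and -4.32 in dying neurons. Both arrays of dying neurons lay below the other 6, and on neither was the probe well above background, so that only a bound can be set there. Such a bound sets the mean of the brighter group against, for each array of the dimmer one, the higher of the probe's own level and the lowest level of any probe well above background. By this measure Gabra4 was at least 5.8-fold higher in sham rats than in dying neurons, with a fitted difference of -4.33 ± 0.82 (SE; limma, adjusted p = 0.00575), or -3.53 after the shift of scale (adjusted p = 0.00884). The probe entered this test through its sham arrays alone, and the size and p-value of the fitted difference rest on dying levels that were not well above background, so that the bound is the firmer value. With the normexp background correction the fitted difference was -0.70 and did not pass (adjusted p = 0.526). Surviving neurons were at least 2.47-fold above dying ones, but the test did not pass (95% interval of the fitted difference 1.18 to 5.01, adjusted p = 0.125). Against sham rats the surviving neurons differed by -1.23 (95% interval -3.14 to 0.69, adjusted p = 0.311), or -0.45 after the shift of scale, with both arrays below both sham arrays.

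Gabra5, the alpha subunit of tonic inhibition in pyramidal cells, was well above background on all 8 arrays. Its probe (A_44_P414565) read 1.42 and 2.50 in naive rats, 2.62 and 2.89 in sham rats, 2.81 and 1.90 in surviving neurons, and -0.37 and 1.83 in dying neurons. The low mean of the dying group rested mostly on its first array, which was also the injured array with the lowest signal. The difference of dying from sham was -2.02 ± 0.77 (adjusted p = 0.0619), or -1.30 after the shift of scale (adjusted p = 0.199), and it was -0.92 without dying replicate 1 (adjusted p = 0.319), while it passed without dying replicate 2 (-3.13, adjusted p = 0.00846) and with only probes well above background on every array compared (adjusted p = 0.0422). Surviving neurons stood 1.63 ± 0.78 above dying ones (adjusted p = 0.268) and -0.39 ± 0.78 from sham rats (adjusted p = 0.74), a direction that turned to 0.39 with the 75th percentile, to 0.26 with quantile normalization and to 0.40 with normexp.

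The probe matched to Gabra2 (A_44_P378252), a subunit common at synapses of the hippocampus, was faint. It read 0.64 on the second naive array, its spot on the first having been left out as non-uniform, -0.20 and 0.58 in sham rats, 0.46 and 0.69 in surviving neurons, and -1.74 and 0.04 in dying neurons. It was well above background on 5 of 8 arrays, both surviving arrays among them, and on 1 array of each other group. Surviving neurons stood 1.42 ± 0.68 above dying ones (adjusted p = 0.278) and 0.38 ± 0.68 from sham rats (adjusted p = 0.715), or 1.16 after the shift of scale. The other comparisons were not tested, because in no group of theirs was the probe well above background on both arrays, with 1 naive spot left out. Gabra3 (A_44_P535601), an alpha subunit best known from monoamine nuclei and cortex, read between -4.48 and -2.30, and no array showed it well above background.

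Gabrb1, a beta subunit and thus part of the GABA binding site, was measured on all arrays. Its probe (A_44_P360501) read 7.48 and 7.71 in naive rats, 8.63 and 8.07 in sham rats, 7.92 and 7.37 in surviving neurons, and 5.77 and 6.93 in dying neurons. Both dying arrays lay below the other 6, and the order of the means was sham, surviving, naive and dying, in which surviving and naive overlapped. Gabrb1 fell by 4-fold in dying neurons against sham rats (-2.00 ± 0.54, 95% interval -3.23 to -0.77, adjusted p = 0.0194). That call depended on the scale, since the difference was -1.27 with the 75th percentile (adjusted p = 0.0769) and -0.81 with quantile normalization (adjusted p = 0.222), and it was lost without sham replicate 1 (-1.72, adjusted p = 0.135), sham replicate 2 (-2.28, adjusted p = 0.0632) or dying replicate 1 (-1.42, adjusted p = 0.0814). Surviving neurons stood 1.30 ± 0.54 above dying ones (adjusted p = 0.219), and -0.70 ± 0.54 from sham rats (adjusted p = 0.368), which became 0.08 with the 75th percentile, 0.10 with quantile normalization and 0.27 with normexp. Gabrb2 (A_42_P641587), the most common beta subunit of the adult brain, read between -3.35 and -0.94 here and was not well above background on any array.

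Gabrd, the delta subunit of receptors outside synapses, followed another pattern. Its probe (A_43_P11897) read 7.73 and 7.02 in naive rats, 6.75 and 7.17 in sham rats, 4.02 and 4.01 in surviving neurons, and 7.28 and 6.55 in dying neurons. Both surviving arrays lay below the other 6 by more than the range of those 6, while naive, sham and dying arrays overlapped. Gabrd was 7.73-fold lower in surviving neurons than in sham rats (-2.95 ± 0.49, 95% interval -4.08 to -1.82, adjusted p = 0.0106), or -2.17 after the shift of scale (adjusted p = 0.0295). Quantile normalization gave -1.93 (adjusted p = 0.0603) and normexp -1.85 (adjusted p = 0.645), and the call was lost without sham replicate 1 (adjusted p = 0.0838), sham replicate 2 (0.0876), surviving replicate 1 (0.0842) or surviving replicate 2 (0.102), at differences from -3.16 to -2.74. The difference from dying neurons, on the same slide, was -2.90 ± 0.49 or 7.46-fold (95% interval -4.03 to -1.77) and did not pass over all probes (adjusted p = 0.0935), although it passed without dying replicate 2 (-3.26, adjusted p = 0.0138). Dying neurons differed from sham rats by -0.05 ± 0.49 (adjusted p = 0.937), and by 0.67 with the 75th percentile and 1.13 with quantile normalization, neither of which passed.

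**Figure D1:**
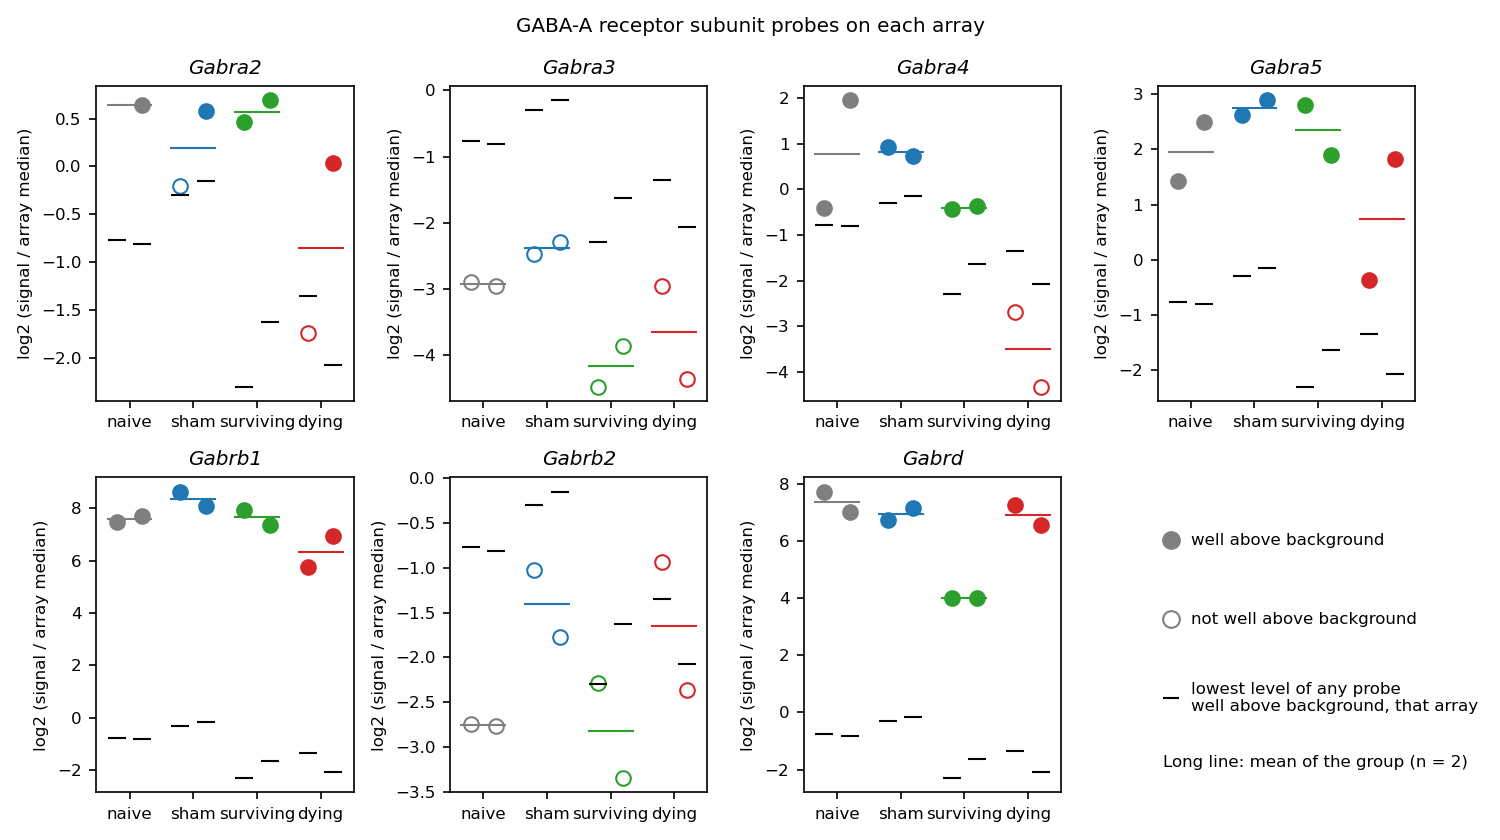
Levels of the 7 member probes on each of the 8 arrays, as log2 of signal over the array median, with a line at the group mean, points filled where well above background, and short black dashes at the lowest level of any probe well above background. Gabra4 and Gabrb1 were lowest in dying neurons, and Gabrd was lowest in surviving neurons, at 4.02 and 4.01.

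Taken by comparison, none of the 5 members tested between surviving and dying neurons passed, and of all 27391 probes tested with limma 0% passed, although 5896 had an unadjusted p under 0.05. In 4 of the 5, Gabra2, Gabra4, Gabra5 and Gabrb1, both surviving arrays were above both dying arrays, and in Gabrd both were below. Gabra2 and Gabra4 were tested through their surviving arrays alone, which favours this direction for them; of the 3 members well above background on all 4 arrays, Gabra5 and Gabrb1 were higher and Gabrd lower in surviving neurons. Of all probes, 30.2% did not overlap in the first direction and 21.9% in the second, so that lack of overlap was common on these arrays. The median difference of the 5 was 1.42, against 0.14 over all probes tested. It is the value of Gabra2 and leans on Gabra4 too, so that this median gives no direction for the members. Gabra5, Gabrb1 and Gabrd, the 3 that did not depend on the surviving arrays alone, stood at 1.63, 1.30 and -2.90. Without dying replicate 2, 4 of the 5 passed, all but Gabra4, along with 5994 of all probes. Without dying replicate 1 none passed, and the differences were 0.53 for Gabra2, 0.53 for Gabra5 and 0.72 for Gabrb1 (adjusted p from 0.569 to 0.774), so that the size of these 3 depended on the first dying array.

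Against sham rats, 1 of 5 members tested was lower in surviving neurons, where 12.0% of 26905 probes were lower and 6.82% higher. In dying neurons 2 of 4 tested were lower, where 29.0% of 25623 probes were lower and 15.1% higher, and no member was higher in either. Of these 2, Gabra4 was tested through its sham arrays alone, and with only probes well above background on all 4 arrays it was not tested, while Gabrb1 and Gabra5 passed. With counts this small these shares are not set apart from those of all probes. The medians of the members were -0.70 and -2.01, against -0.43 and -0.46 over all probes. The split of all calls moved with the scaling: 36.1% of those in surviving neurons were higher with the median, 73.4% with the 75th percentile and 59.3% with quantile normalization, and in dying neurons 34.2%, 59.7% and 56.3%.

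Sham minus naive gives the effect of surgery alone, and none of 4 members tested passed, as 0% of 20676 probes did with limma, 997 of them having an unadjusted p under 0.05. Differences were 0.05 ± 0.81 for Gabra4, 0.79 ± 0.76 for Gabra5, 0.75 ± 0.52 for Gabrb1 and -0.41 ± 0.47 for Gabrd, the last 3 becoming 0.51, 0.47 and -0.70 with the 75th percentile. For Gabra4 the naive arrays lay far apart, at -0.40 and 1.95, and the sign turned to -0.24 with the 75th percentile and -0.19 with normexp.

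**Figure D2:**
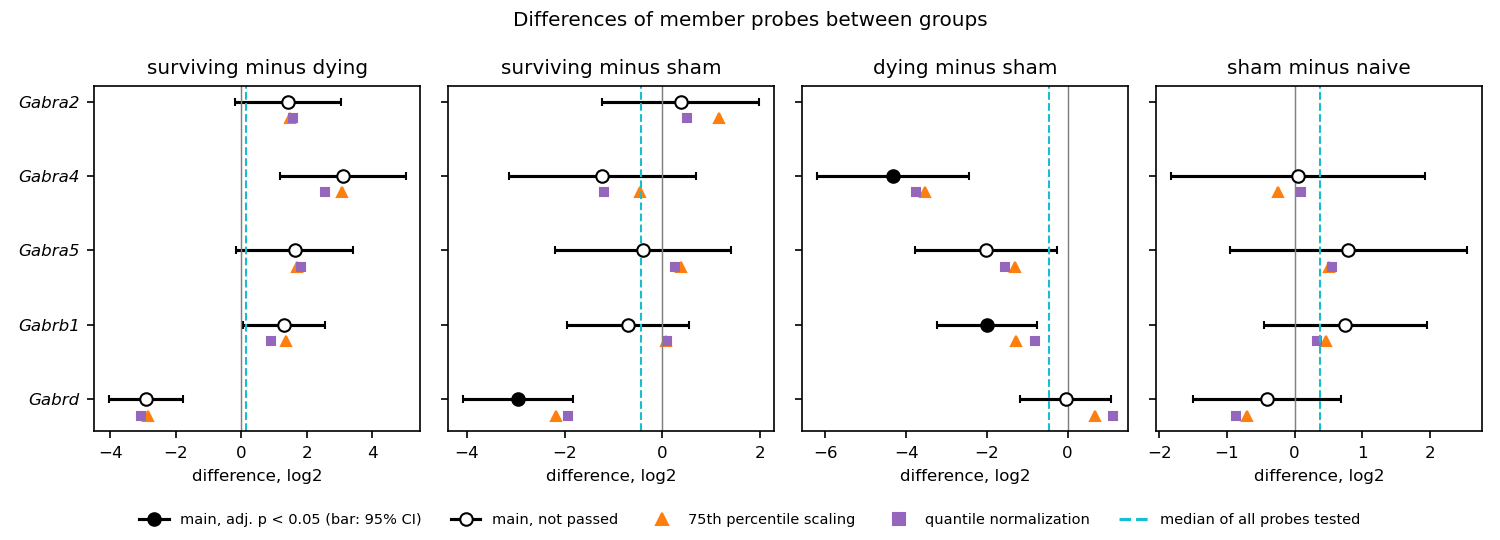
Differences between groups on the log2 scale for the 5 member probes tested, as circles with 95% intervals (filled at an adjusted p under 0.05), with triangles for 75th percentile scaling, squares for quantile normalization and a dashed line at the median over all probes tested. Filled circles stand at -2.95 for Gabrd in surviving minus sham and at -4.33 for Gabra4 and -2.00 for Gabrb1 in dying minus sham; against sham the triangles lie to the right of the circles.

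The remaining 12 genes of the GABA-A and rho receptor family had 14 probes. None of 7 tested passed between surviving and dying neurons, where Gabrq, the theta subunit, differed by 1.28 ± 0.42 (adjusted p = 0.154). In dying neurons 2 probes of 5 tested were lower than in sham rats and none was higher. Among these, Gabrq fell by 2.61 ± 0.42 (adjusted p = 0.00346; -1.88 with the 75th percentile, adjusted p = 0.00815), with 6.21 and 6.25 in naive rats, 7.10 and 6.71 in sham rats, 5.45 and 5.69 in surviving neurons, and 4.24 and 4.35 in dying ones. The arrays of its groups lay in separate ranges.

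None of 7 probes of this list passed for surviving minus sham, with -1.33 ± 0.42 for Gabrq (adjusted p = 0.0604; -0.55 with the 75th percentile), nor any of 4 for sham minus naive, with 0.67 ± 0.40 for Gabrq. The median differences of the list were 1.07 for surviving minus dying, -0.01 for surviving minus sham and -2.00 for dying minus sham.

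The metabotropic GABA-B receptors had 3 probes, of which 1, a Gabbr1 probe (A_43_P12481), was higher than in sham rats in surviving neurons (1.72 ± 0.50, adjusted p = 0.0497) and in dying neurons (2.20 ± 0.50, adjusted p = 0.011), and none was lower. The call in surviving neurons was held in only 8 of 18 settings and was lost without either sham or either surviving array (adjusted p from 0.141 to 0.276), and that in dying neurons was held in 16. The other Gabbr1 probe (A_44_P249164) lay below sham rats in dying neurons, at 4.43 and 5.22 against 6.03 and 6.14. That lower level did not pass, and no direction is given for Gabbr1, whose 2 probes did not go together. Between surviving and dying neurons that second probe differed by 0.91 ± 0.56 (adjusted p = 0.374) and Gabbr2 by 0.82 ± 0.51 (adjusted p = 0.384), and between sham and naive rats the 2 Gabbr1 probes differed by 0.83 ± 0.49 and 0.64 ± 0.54.

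Of the genes that make, move and break down GABA, 9 probes of 9 genes were tested against sham rats. In surviving neurons 2 were higher and 2 lower, and in dying neurons 2 higher and 3 lower. Gad1, which makes GABA, was counted as lower in surviving neurons (adjusted p = 0.0284; 0.0523 with the 75th percentile). It was well above background on only 1 of their arrays, so that its fitted difference of -1.97 ± 0.47 is not a firm size. In dying neurons Gad1 was not well above background, and sham rats were at least 3.74-fold higher (fitted difference -2.85 ± 0.47, adjusted p = 0.00371). Gad1 is also a marker of interneurons.

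Slc6a11, a GABA transporter best known from astrocytes, was not well above background in sham rats and was tested through the injured arrays alone. Its level exceeded that of sham rats at least 6.6-fold in surviving neurons (adjusted p = 0.012) and at least 3.78-fold in dying neurons (adjusted p = 0.0108). These p-values rest on sham levels that were not well above background, so that the bounds are the firmer values. Slc6a12, which carries betaine and GABA, was higher by 2.03 ± 0.53 (adjusted p = 0.0362) and 2.36 ± 0.53 (adjusted p = 0.0101). Aldh5a1, the last enzyme of GABA breakdown, was counted as lower in dying neurons (adjusted p = 0.0238), but it was well above background on only 1 of their arrays, so that its fitted difference of -3.48 ± 0.99 is not a firm size, and the call was held in 10 of 17 settings. No probe of the 7 tested passed between surviving and dying neurons, with -2.36 ± 1.14 for Slc6a13 and 0.80 ± 0.56 for Slc6a11, nor of the 7 between sham and naive rats, with 0.44 ± 0.51 for Slc6a12.

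Proteins that hold or carry receptors at inhibitory synapses were read from 33 probes of 20 genes, and Gabarapl1, Trak1 and Shisa7 were matched to no probe. In dying neurons 9 of 26 probes tested were lower than in sham rats and 3 higher, and in surviving neurons 2 of 28 were lower and 3 higher. Among those lower, Plcl1, which binds the receptor and aids its traffic, differed by -2.51 ± 0.41 in dying (adjusted p = 0.00367) and -2.24 ± 0.41 in surviving neurons (adjusted p = 0.0139), and Rdx, which anchors receptors with Gabra5, by -2.23 ± 0.43 (adjusted p = 0.00609) and -1.90 ± 0.43 (adjusted p = 0.0243; 0.0756 with the 75th percentile).

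The 3 higher probes were the same in both groups and were not well above background in sham rats: A_43_P21444 of Arfgef2 (at least 3.43-fold in surviving, adjusted p = 0.0149, and 2.74-fold in dying neurons, adjusted p = 0.00825), A_44_P794770 of Trak2 (at least 1.54-fold, adjusted p = 0.0133, and 1.02-fold, adjusted p = 0.0106) and A_44_P271678 of Dag1 (at least 1.04-fold, adjusted p = 0.03, and 1.25-fold, adjusted p = 0.00859). Each of these genes had another, brighter probe that was not higher; that of Arfgef2 (A_44_P1012529) was lower in dying neurons (-1.52 ± 0.48, adjusted p = 0.0339; 0.0956 with the 75th percentile). The 3 higher probes were tested through the injured arrays alone, and no direction is given for their genes. Between surviving and dying neurons none of 28 probes passed, with 1.70 ± 0.71 for Ubqln1 (A_44_P1046554, adjusted p = 0.219), and the median was 0.57; between sham and naive rats none of 23 passed, with 0.86 ± 0.39 for Plcl1 and 0.81 ± 0.41 for Rdx.

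The chloride gradient decides whether an open GABA-A channel inhibits. Stk39 and Oxsr1, kinases that act on chloride transporters, were lower than in sham rats in dying neurons (-2.99 ± 0.46, adjusted p = 0.00317; -2.89 ± 0.59, adjusted p = 0.00731) and in surviving neurons (-2.15 ± 0.46, adjusted p = 0.0219; -2.12 ± 0.59, adjusted p = 0.0431), the latter calls being lost with the 75th percentile (adjusted p = 0.065 and 0.156) and held in 10 and 6 of 18 settings. In dying neurons 4 of 6 probes tested were lower and 1 higher, and in surviving neurons 2 of 8 lower and 1 higher. The chloride channel Clcn2 was lower in dying neurons (-1.89 ± 0.47, adjusted p = 0.0152), as was Slc12a5, the transporter that keeps neuronal chloride low, at 10.48 and 9.72 against 11.74 and 11.38 in sham rats (-1.46 ± 0.47, adjusted p = 0.0382; 0.128 with the 75th percentile). The higher probe was A_44_P303651 of Wnk1, which was not well above background in sham rats and was tested through the injured arrays alone, with bounds of at least 3.39-fold in surviving (adjusted p = 0.0292) and 2.65-fold in dying neurons (adjusted p = 0.0221). None of 8 passed between surviving and dying neurons, with 0.84 ± 0.47 for Stk39 and 0.76 ± 0.59 for Oxsr1, nor any of 5 between sham and naive rats, with 1.55 ± 0.51 for Clcn3 and 0.63 ± 0.46 for Slc12a5.

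Among glycine receptors, which share the build of GABA-A receptors, Glra2 was lower in surviving (-3.66 ± 0.42, adjusted p = 0.00327) and dying neurons (-3.31 ± 0.42, adjusted p = 0.0019) than in sham rats, and these were the only calls of the 3 probes tested in each. It read 4.89 and 4.70 in sham rats, 1.37 and 0.90 in surviving neurons, and 1.53 and 1.44 in dying ones. Surviving and dying neurons did not pass in any of 4 probes, with -0.35 ± 0.43 for Glra2 and -0.15 ± 1.04 for Glra1 (A_44_P196389), and the 1 probe tested between sham and naive rats was Glra2 (0.50 ± 0.41).

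Against the medians over all probes tested, 0.14 for surviving minus dying, -0.43 for surviving minus sham and -0.46 for dying minus sham, the lists stood as follows. GABA-B receptors had medians of 0.82, -0.05 and -0.87, and the genes of GABA synthesis, transport and breakdown had -0.29, -0.64 and -0.61. Scaffold and traffic genes had 0.57, -0.44 and -1.16, chloride genes 0.70, -0.70 and -1.68, and glycine receptors -0.25, -0.28 and 1.15. The glycine receptor value of 1.15 was that of a Glra1 probe (A_44_P146851). Both Glra1 probes were well above background on no sham array and were tested there through the dying arrays alone. Glra2, measured in both groups, differed by -3.31, so that the median gives no direction for this list. Several of these lists hold few probes, and their shares of calls are to be read against the 12.0% lower and 6.82% higher in surviving neurons, and the 29.0% and 15.1% in dying neurons, given above for all probes.

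**Figure D3:**
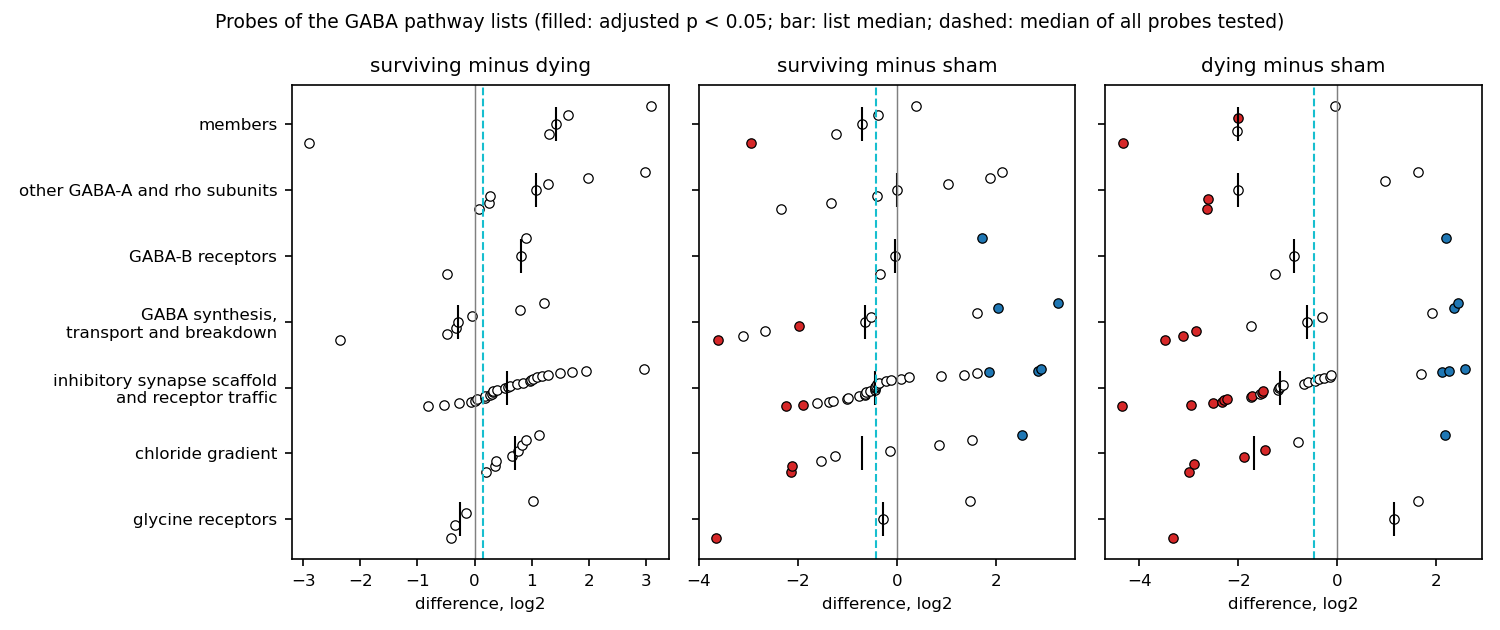
Differences on the log2 scale for every probe tested in the members and the 6 lists of related genes, red where lower and blue where higher at an adjusted p under 0.05, with a black bar at the median of each list and a dashed line at that of all probes tested. No point is coloured in surviving minus dying, and in dying minus sham the medians of the members and of the other GABA-A and rho subunits stand at -2.01 and -2.00.

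The genes most like each member were sought among 6528 probes of other named genes, each well above background throughout, by Pearson's r over the 8 levels. Gabra5 was most like P4hb (r = 0.988) and Tmem110 (r = 0.987), and Gabrb1 most like Eif5 (r = 0.996) and Azi2 (r = 0.991). All 4 were lowest on the first dying array. Gabrd was most like Npr2, a natriuretic peptide receptor (r = 0.962), and Hrh3, a histamine receptor (r = 0.948). Npr2 read 2.31 and 1.87 in surviving neurons and from 3.63 to 4.34 elsewhere, and Hrh3 read 2.27 and 2.26 against 3.43 to 4.56. Between members, r was 0.91 for Gabra5 and Gabrb1, -0.31 for Gabra5 and Gabrd and -0.15 for Gabrb1 and Gabrd. These values describe 8 arrays that share groups and slides.

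**Figure D4:**
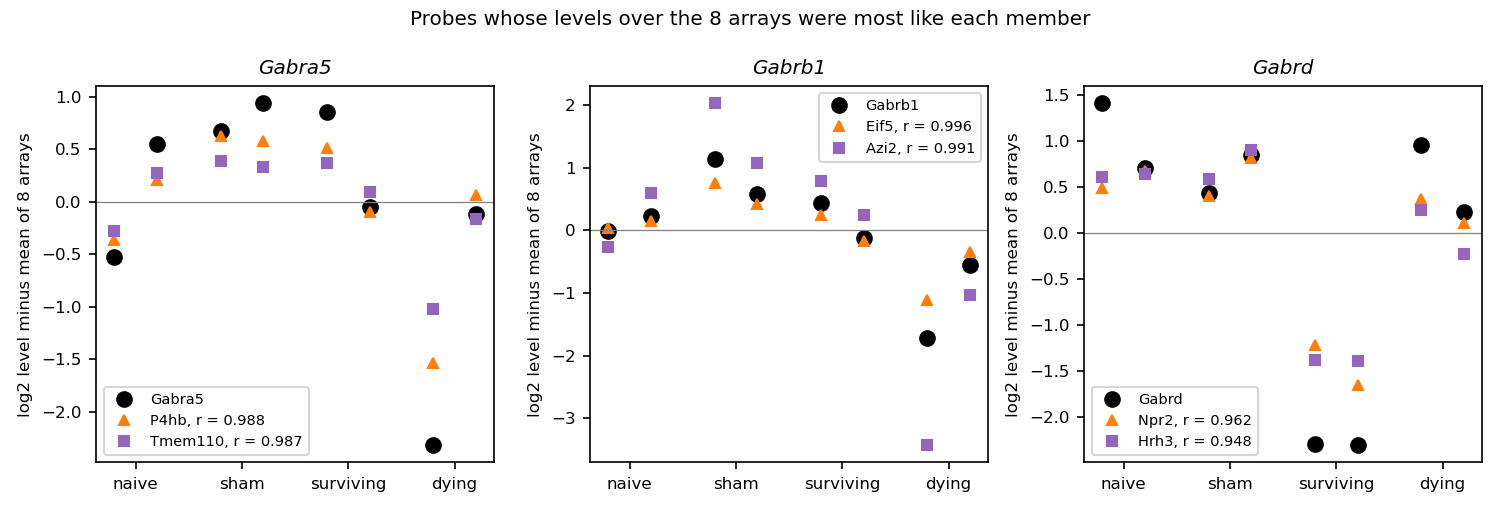
Levels of Gabra5, Gabrb1 and Gabrd (black) and of the 2 probes most like each, on the 8 arrays, each probe shown as its log2 level minus its own mean over the arrays. In the Gabrd panel the 2 surviving arrays are low for all 3 probes, and in the other panels the first dying array is lowest.

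Markers of cell types were read on the same arrays. Of 8 markers of CA3 and pyramidal neurons, 6 had a probe, and these were well above background on all arrays, except Grik4 on the first dying array; Neurod6 and Rbfox3 had none. Their summed signal, in multiples of the array median, was 1938 and 2684 in naive rats, 4208 and 3044 in sham rats, 2123 and 1645 in surviving neurons, and 1909 and 1481 in dying ones, with Snap25 brightest in controls and Grin1 in injured rats. In dying neurons 3 of 8 of these probes were lower than in sham rats and none was higher, against 29.0% lower of all probes. All 8 differences were below 0, with a median of -2.51 against -0.46 over all probes, beside -2.01 for the members. Those that passed were Nptx1 (-5.45 ± 0.79, adjusted p = 0.00262), Snap25 (-3.83 ± 0.69, adjusted p = 0.00502) and a Grin1 probe (A_44_P240900, -3.55 ± 0.47, adjusted p = 0.00213). The others were -2.85 for Grik4, -2.16 for Slc17a7, -1.90 and -0.11 for the Camk2a probes (A_44_P101625 and A_44_P296812) and -0.02 for the other Grin1 probe (A_44_P536333), so that the probes of Grin1 and of Camk2a differed from each other. For surviving minus dying none of the 8 passed, 7 were above 0, and the median was 1.45 against 0.14 over all probes. For surviving minus sham 2 of 8 were lower, Snap25 (-2.67 ± 0.70, adjusted p = 0.0371) and Grin1 (A_44_P240900, -1.81 ± 0.47, adjusted p = 0.0373), both lost with the 75th percentile (adjusted p = 0.101 and 0.155), and the median was -0.70 against -0.43. Fewer cells of a type and less RNA per cell cannot be told apart in such pools.

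Beside the low Gabrd of surviving neurons stood markers of dentate granule cells, which are rich in Gabrd, and of interneurons. The 5 granule cell markers summed to 82.7 and 255 in naive rats, 126 and 168 in sham rats, 22.5 and 34.3 in surviving neurons, and 121 and 37.2 in dying ones, with C1ql2 the brightest on 7 arrays and Calb1 on the first naive array. Like Gabrd this sum was lowest on the surviving arrays, but the second dying array, at 37.2, had Gabrd at 6.55. The sums of astrocyte markers (441 and 460) and endothelial markers (22 and 23.2) were lowest on the surviving arrays as well. For surviving minus dying the probes did not go together: 3 of the 6 tested were above 0 and 3 below, and none passed. Both C1ql2 probes and 1 Calb1 probe (A_44_P118630) had differences from -1.61 to -1.04, whereas 2 other Calb1 probes were lowest in dying neurons, 1 of them (A_44_P621980) at 0.04 and -0.88 in surviving and at -3.16 and -2.65 in dying neurons. Against sham rats 5 of the 6 probes tested were below 0 in surviving neurons, each with both arrays below both sham arrays. The median of the 6 was -1.81 against -0.43 over all probes. Of the 5, Calb1 (A_44_P118630) passed (-3.18 ± 0.92, adjusted p = 0.049; 0.129 with the 75th percentile). The C1ql2 probes did not pass (-2.43 and -2.27, adjusted p = 0.0887 and 0.0503). Tdo2 was counted as higher (adjusted p = 0.0271) but was well above background on no sham array, so that no size is given. Of these markers 2 to 4 were well above background on an array, and Prox1, which defines granule cells, was on none; Tdo2 was on no control array and Dsp only on the second dying array. The 11 interneuron markers summed to 1760 and 2519 in naive rats, 2185 and 2428 in sham rats, 2483 and 2593 in surviving neurons, and 7145 and 2044 in dying ones, with Cck brightest throughout and making up most of each sum; 9 or 10 were well above background, Lhx6 on no array, Gad2 on no control array and Gad1 on no dying array. Probe by probe, 3 of 11 tested were lower in surviving neurons than in sham rats, against 12.0% of all probes, and the median was -1.14 against -0.43. Both probes of Reln were among them (-3.20 ± 0.79, adjusted p = 0.0312, and -3.24 ± 0.81, adjusted p = 0.0326), the latter lost with the 75th percentile (adjusted p = 0.0513), while Vip differed by -2.42 ± 0.84 without passing (adjusted p = 0.0787). Of the 11 probes, 8 were below 0 and 3 above, namely Gad2 (1.62, tested through its surviving arrays alone), Cck (0.50) and Npy (0.07), none of which passed. Against dying neurons the Reln probes differed by -2.13 ± 0.79 and -1.67 ± 0.81 and did not pass. The part of other cells in the Gabrd result was not tested.

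Dying neurons carried more signal of microglia and macrophages, at 1673 and 1027 against 294 and 341 in surviving ones, 286 and 256 in sham rats and 138 and 288 in naive rats. C1qb was the brightest of these 9 markers in dying neurons and on the second surviving array, and C1qa elsewhere; 6 to 9 were well above background, Cx3cr1 and Itgam on no control array and Ptprc on no sham array. In dying neurons 6 of the 9 probes tested, of 7 genes, were higher than in sham rats and none was lower, against 15.1% higher of all probes. The 6 probes came from 4 genes, C1qa, C1qb, C1qc and Cd68. The other 3 did not pass, at -0.14 for Aif1, -0.34 for Csf1r (A_44_P257582) and 1.61 for Itgam, which was tested through its dying arrays alone. Oligodendrocyte markers went the other way, at 237 and 271 in surviving neurons and at 327 and 244 in dying ones, against 2162 and 2060 in sham rats and 1595 and 1482 in naive rats; all 7 were well above background on each array, Mog being brightest on the first dying array. Astrocyte markers summed to 441 and 460 in surviving neurons, 1037 and 488 in dying ones, 1280 and 832 in sham rats and 742 and 827 in naive rats, with Slc1a3 brightest, 6 or 7 of 7 well above background and S100b on no array of injured rats. Endothelial markers summed to between 22 and 48.4 on every array, with Cldn5 brightest, 2 to 5 of 6 well above background, Tek on none and Flt1 and Pecam1 on no control array. Their part in the lower Gabra4 and Gabrb1 of dying neurons was not tested.

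**Figure D5:**
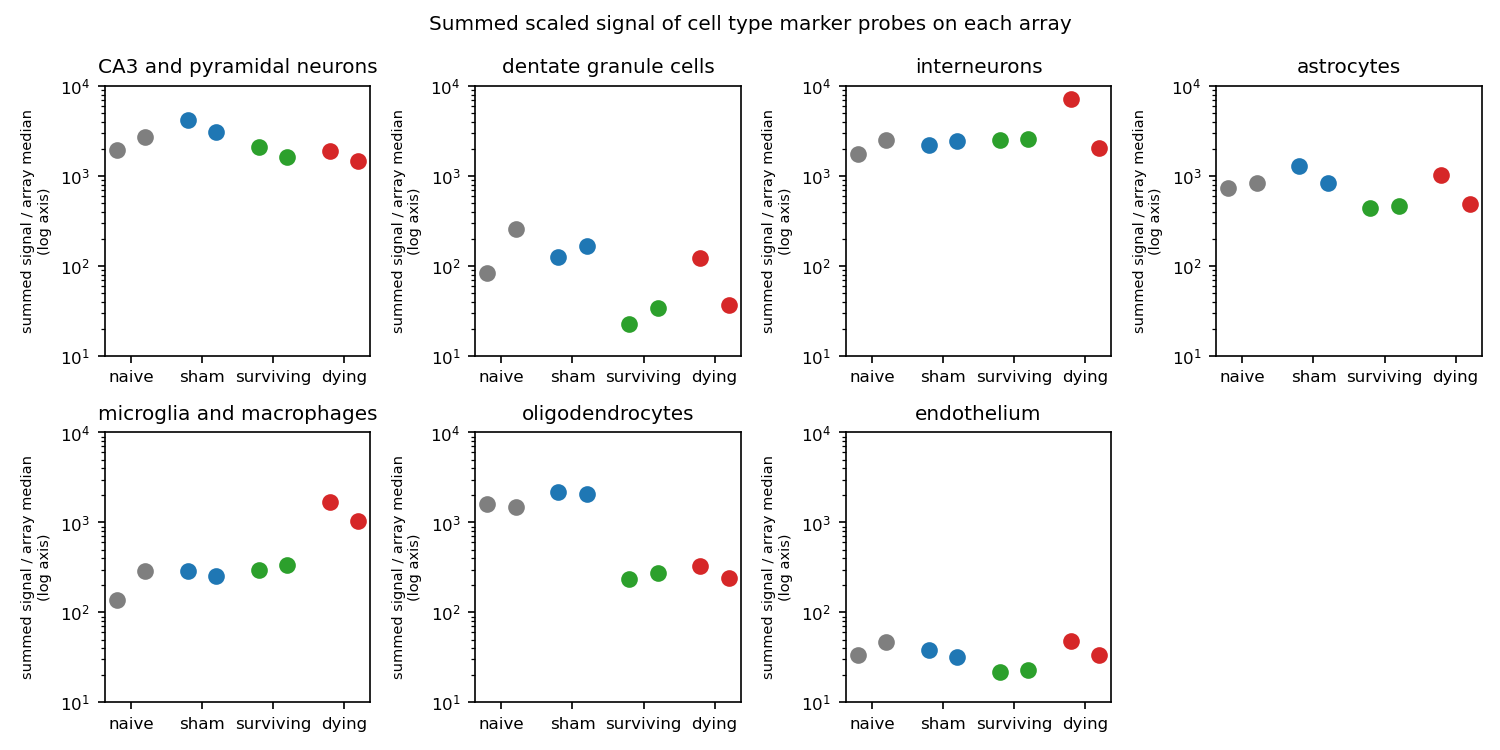
Summed scaled signal of the marker probes of 7 cell types on each array, in multiples of the array median on a log axis, with the 2 arrays of each group side by side. Microglia and macrophage markers were highest on the dying arrays (1673 and 1027), and oligodendrocyte markers were low on all 4 arrays of injured rats. Granule cell markers were lowest on the surviving arrays (22.5 and 34.3), as were astrocyte and endothelial markers.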

How the data were processed

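The intensities in each array file came from the authors' run of Agilent Feature Extraction, version 9.1.3.1 per the file headers, which subtracts background, with no scaling between arrays. The headers named 1 protocol for the injured arrays and another for the naive and sham arrays. The files also hold other deposited columns, marks for spots well above background, non-uniform or saturated. For the series table, the authors deposited signal values that equal the intensities over 1 constant for each array, as comparing them showed; these served as an alternative.

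Spots marked non-uniform were dropped and the spots of each probe averaged, steps chosen here. Signals were divided by the array median, as in the study's methods, whose further division of each gene by its own median was not applied, with a floor of 0.01 before log2. Probes that stood well above background on each array of 1 or both groups compared were tested with limma 3.58.1 in R 4.3.3, in 1 two-sided model of the 4 groups with no replicate block, and p-values were adjusted by Benjamini-Hochberg over all probes tested at a threshold of 0.05. The script was checked on simulated data. Gene names are those of the array; 10735 of 41012 probes had an accession in the RefSeq table (GRCr8), and 3 Wnk1 probes were named through it. From each list up to 3 probes passing in each direction were chosen or, where none passed, up to 2 with the smallest p among probes well above background on all 4 arrays. Values of some probes chosen by this rule are not printed, while the counts and medians of the lists keep them. Of the 7 members, 6 had a promoter in the RefSeq table. Alternatives were 75th percentile scaling, quantile normalization, normexp with an offset of 50 on the mean and background intensities, other filters, non-uniform spots kept, only the groups compared, array weights, a replicate block, the series table, and each array left out. The members and lists were chosen with earlier results of these data known.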

Additional observations from a re-analysis of the deposited data

How the results depend on the processing

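Of 320 values of the member differences under the alternatives, 278 kept their direction and their side of the threshold. The number of members past the threshold was 0 for surviving minus dying under all alternatives except leaving out dying replicate 2, which gave 4 (0 to 4 with an array left out). For surviving minus sham it was 1, against 0 with quantile normalization, 0 with normexp, 2 with only the groups compared and 0 to 1 with an array left out. For dying minus sham it was 2, against 1 with the 75th percentile, 1 with quantile normalization, 0 with normexp, 1 with the series table and 1 to 3 with an array left out. It was 0 for sham minus naive throughout. Normexp gave 0 calls among all probes in each comparison; the cause was not tested. Where an array was left out, its group had 1 array, which was taken to vary like the other groups.

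Directions that turned belonged to differences that did not pass. For surviving minus sham, Gabra5 (-0.39) was 0.39 with the 75th percentile, 0.26 with quantile normalization, 0.40 with normexp and 0.49 with the series table, and -0.85 to 0.06 with an array left out; Gabrb1 (-0.70) was 0.08, 0.10, 0.27 and 0.18 in the same order; Gabra2 (0.38) ran from -0.01 to 0.77 with an array left out. For dying minus sham, Gabrd (-0.05) was 0.67 with the 75th percentile, 1.13 with quantile normalization and 0.75 with the series table, and -0.41 to 0.31 with an array left out. For sham minus naive, Gabra4 (0.05) was -0.24 with the 75th percentile, -0.19 with normexp and -0.28 with the series table, and -1.13 to 1.23 with an array left out, and Gabrd (-0.41) was 0.56 with normexp. For surviving minus dying, Glra2 (-0.35) was 0.18 with normexp, and Glra1 (-0.15) ran from -0.75 to 0.45 with an array left out. The 75th percentile moved nearly all probes of a comparison by the same amount, whereas quantile normalization moved them unequally, for dying minus sham Gabrb1 from -2.00 to -0.81 but Gabra4 from -4.33 to -3.75; the causes were not tested.

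Of all probes, 0 passed for surviving minus dying, against 2 with the series table and 5994 without dying replicate 2. For surviving minus sham 5074 passed, against 3109 with only probes well above background on all arrays compared, 12161 with only the groups compared, 11502 with array weights and 253 to 8557 with an array left out. For dying minus sham 11289 passed, against 7156 with that filter and 3048 to 13426 with an array left out. For sham minus naive 0 passed, against 1 with quantile normalization, 118 with only the groups compared, 8 with array weights and 0 to 22 with an array left out. Among the probes named from the lists, 86 of 246 values for surviving minus sham and 40 of 281 for dying minus sham no longer passed, 29 of these under normexp.

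The deviations of the first arrays of different groups correlated between -0.194 and 0.071, so that the replicate numbers were not taken to pair arrays. Surviving and dying arrays also shared a slide, and surviving neurons were taken next to dying ones. Whether a surviving and a dying pool came from the same rats was not given. With a replicate block 0 members passed for surviving minus dying, 1 for surviving minus sham, 2 for dying minus sham and 0 for sham minus naive, and 3488 and 10397 of all probes passed against sham rats in surviving and dying neurons. A crossed replicate block, added after the data were seen, gave 0 calls for surviving minus dying. Signal over background limited Gabra2, Gabra3 and Gabrb2, and Gabra4 in dying neurons.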
